A study of Rattus norvegicus with 15 samples.

Results

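Oxidative phosphorylation is carried out by 5 protein complexes of the mitochondrial inner membrane, and the probe sets of their nuclear genes are described here in the gastrocnemius muscle of rats fed less protein. A probe set, the group of array probes that reads one transcript, was taken when its single gene symbol began with Ndufa, Ndufb, Ndufc, Ndufs, Ndufv, Sdha, Sdhb, Sdhc, Sdhd, Uqcr, Cyc1, Cox4i, Cox5, Cox6, Cox7, Cox8 or Atp5, and assembly factors beginning with Ndufaf or Sdhaf were left out. This gave 90 of 31042 probe sets, which read 81 of the 14217 genes that have a probe set of their own. Complex I held 37 probe sets of 34 genes, complex II 5 of 4 genes, complex III 9 of 8 genes, complex IV 19 of 19 genes and complex V 20 of 16 genes. Counted with complex IV were Ndufa4, Ndufa4l2, the supercomplex factor Cox7a2l and Cox6c-ps1, by its symbol a pseudogene. A further 7 probe sets carry a member's symbol together with that of another gene and were not used. This leaves Cox7a2, the non-muscle partner of Cox7a1, and the c subunit genes Atp5mc1 and Atp5mc2 with no probe set. The same holds for Ndufa10 and Ndufs5 of complex I and Uqcrb of complex III.

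Male Wistar rats, bought at 3.5 weeks of age and kept for 3 days on 15% casein, were fed either 15% casein (CN, n = 4) or 8% casein of equal calories (LP, n = 4) for 4 weeks. The rebound groups CN-R (n = 3) and LP-R (n = 4) had been fed in the same way and were sampled on day 84. The paper describes a return of LP-R to 15% casein in the meantime, whereas the sample labels describe no change of diet, and the paper's version is used. All rats were fasted for 16 h, each array holds the muscle of 1 rat, and the rats were picked for a body weight close to their group's mean. CN-R replicate 4 is a control by its title and a restricted rat by its treatment field, and was placed in CN-R.

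Electrons from NADH enter the chain at complex I and those from succinate at complex II, and ubiquinone carries both to complex III. Cytochrome c passes them on to complex IV, which reduces oxygen, and the proton gradient built on the way drives ATP synthase, complex V. The subunits differ in role: core subunits bind the flavins, iron-sulfur clusters, hemes and copper, accessory subunits hold the complexes together, and some complex IV subunits exist as a heart and skeletal muscle form and a form of other tissues. Muscle that works for long periods is rich in these complexes, and factors such as NRF1, GABPA, ESRRA, YY1 and SP1 are known to bind promoters of their genes.

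The 150 bases before the start of transcription are shown for the gene with the greatest change (Uqcrfs1), the gene with the smallest limma p (Atp5f1d) and the muscle form of a complex IV subunit (Cox7a1). They come from RefSeq on build GRCr8, are written 5′ to 3′ along the gene, and lie at chr17:34186452-34186601 on the plus strand, chr7:10214351-10214500 on the minus strand and chr1:94569066-94569215 on the plus strand. Capitals mark the SP1 letters in Uqcrfs1 and the NRF1 letters in Atp5f1d, and the Cox7a1 stretch holds no match.
Uqcrfs1: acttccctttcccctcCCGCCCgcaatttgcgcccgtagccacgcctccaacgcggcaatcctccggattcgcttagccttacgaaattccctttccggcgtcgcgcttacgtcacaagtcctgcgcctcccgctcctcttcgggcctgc
Atp5f1d: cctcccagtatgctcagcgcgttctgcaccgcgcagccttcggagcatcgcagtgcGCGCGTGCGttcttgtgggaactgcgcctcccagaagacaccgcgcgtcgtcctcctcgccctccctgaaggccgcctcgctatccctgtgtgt
Cox7a1: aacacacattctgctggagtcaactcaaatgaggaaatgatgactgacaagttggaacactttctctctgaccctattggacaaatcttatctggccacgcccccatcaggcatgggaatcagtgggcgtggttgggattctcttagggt

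The motif letters searched on both strands were GCGCNTGCG for NRF1, CCGGAAGT for GABPA, TCAAGGTCA for ESRRA, AAGATGGC for YY1 and GGGCGG for SP1, none of which contains another. RefSeq windows from 250 bases before to 50 after the start were found for 72 of the 81 genes. The NRF1 letters stood in 25.0% of these 72 windows and in 5.75% of all 33469 windows. The shares were 22.2% and 3.17% for YY1, 11.1% and 3.81% for GABPA, 2.78% and 0.433% for ESRRA, and 43.1% and 33.1% for SP1. Base composition was not matched between these windows. Among the genes with a varying probe set and a higher mean in LP, 23.8% of 21 windows held the NRF1 letters, against 26.0% of 50 windows of genes whose probe sets were constant in that array set. For YY1 these shares were 19.0% and 24.0%. A match is a description of letters, and binding was not measured.

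The authors' summarization, FARMS, gives a log2 signal, and where the probes of a set do not move in common it returns nearly the same number on every array. A probe set with an SD over 0.01 across the arrays of a comparison is called varying here, and a constant one gives no information on a change, so it is not evidence that the transcript stayed level. Across CN and LP, 27 of the 90 probe sets varied (30.0%, against 12.8% of all 31042), and across CN-R and LP-R 26 varied (28.9%, against 9.99%). Most probe sets at large are dimmer than the members. Above a mean control signal of 10, 26 of 75 members varied early, against 757 of all 1433 probe sets. Late, 23 of 74 members varied above that signal, against 571 of all 1276. Among bright probe sets the members thus varied less often than the rest. Only 6 varied in both array sets, 21 in the early set alone, 20 in the late set alone and 43 in neither. The 2 sets were summarized apart, so no signal of CN was set against one of CN-R. Pearson's r between arrays of a group ran from 0.9971 to 0.9987 early and from 0.9972 to 0.9989 late, taken across probe sets, and probe sets are no independent replicates.

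**Figure D1:**
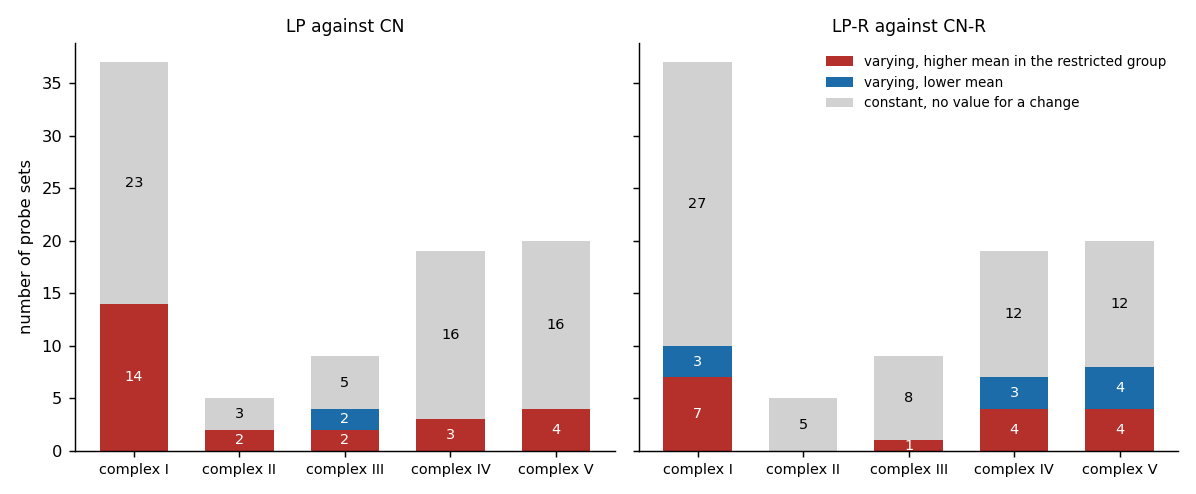
Number of OXPHOS probe sets in each complex, with LP against CN on the left and LP-R against CN-R on the right. Red counts varying probe sets with a higher mean in the restricted group, blue those with a lower mean and grey those that were constant. In LP 25 of 27 varying probe sets are red and in LP-R 16 of 26.

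After 4 weeks of 8% casein, 25 of the 27 varying OXPHOS probe sets had a higher mean signal in LP than in CN. Their median change was 0.060 on the log2 scale, against 0.017 over all 3974 varying probe sets, of which 57.6% had a higher mean. In 9 of the 27 (33.3%) every LP array lay above every CN array, and in 0 every LP array lay below. Among all varying probe sets 5.41% were separated in this way upward and 2.49% downward. The 9 were Uqcrfs1, Ndufb8, Atp5f1d, Ndufc1, Ndufs8, Ndufb7, Ndufs7, Ndufc2 and Ndufb10. Both probe sets with a lower mean belonged to Uqcrc2, a core subunit of complex III. In muscle RNA measured in bulk, fewer cells of a type and less RNA per cell cannot be told apart.

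Rank products, which the study's methods name, ranks the change of each probe set in every pair of arrays and estimates the proportion of false positives (pfp) from values permuted within arrays. At a pfp up to 0.05 it called 5 of the 90 higher in LP (5.56%), namely Uqcrfs1, Cox7a1, Ndufb8, Atp5f1d and Ndufc1, and 0 lower. Of all probe sets 1.68% were called higher and 1.58% lower. Of the 1433 probe sets with a mean CN signal over 10, 4.4% were called higher, against 5.33% of the 75 OXPHOS probe sets above that signal, so the calls alone were close to the background of bright probe sets. Among the varying probe sets above that signal, 34.6% of the 26 OXPHOS ones and 5.55% of the 757 at large were separated upward. limma, with Benjamini-Hochberg adjustment over 31042 probe sets, called 0 OXPHOS probe sets and 0 of all (0.0%), with a smallest adjusted p of 0.525 among the members and 0.0742 over all. At an unadjusted limma p under 0.05 there were 17 of the 90 members, against 2342 of all 31042 probe sets. Above a signal of 10 there were 17 of the 75 members and 164 of the 1433 bright probe sets. Of the 17, 10 were varying, all with a higher mean in LP, and the rest were constant and give no direction. Among all 3974 varying probe sets 576 had such a p.

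The number of rank products calls depended on single arrays and on the presence of constant probe sets. Of the 5 members, Uqcrfs1 was called whichever array was left out. Leaving out LP replicate 1, 2, 3 or 4 left 1, 1, 2 and 1 of the members called higher, and leaving out CN replicate 3 left 3. The calls over all 31042 probe sets fell too. Without these LP arrays 126, 104, 130 and 195 were called higher in place of 522, and without CN replicate 3 424 were. With the varying probe sets tested alone, 0 members were called, and 11 of all 3974 were called higher and 20 lower. The direction held more widely: without LP replicate 3, the array with the highest OXPHOS signals, 24 of 27 probe sets had a higher mean and the median change was 0.042. In these arrays 9 were separated upward, against 6.72% of all varying probe sets, and 1, a probe set of Uqcrc2, was separated downward. The number separated upward depended on scaling, with 8 after quantile normalization and 2 after each array was centred on the median of its varying probe sets. The share of all varying probe sets separated on these scales was not determined, so these counts have no background. On these scales 25 and 26 of the 27 had a higher mean, against 56.8% and 58.4% of all varying probe sets.

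Uqcrfs1, the Rieske iron-sulfur protein through which complex III passes electrons to cytochrome c1, showed the greatest change of all members. Its log2 signals were 12.287, 12.515, 12.547 and 12.252 in CN and 12.738, 12.554, 12.711 and 12.725 in LP. LP replicate 2 stood lowest in its group, just above the highest CN array, and the groups did not overlap. The change was 0.282 ± 0.0874 (SE, 1.22-fold), with a pfp of 0.00388, a limma adjusted p of 0.615 and an exact two-sided permutation p of 0.0286, the smallest that 4 against 4 arrays allow. This call was kept whichever 1 array was left out, with changes from 0.233 to 0.331.

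The other varying probe sets of complex III overlapped between the groups, with a higher mean in LP for Uqcrq and lower means for Uqcrc2. Uqcrq, a small subunit beside cytochrome b, read 12.730, 12.718, 12.707 and 12.711 in CN and 12.732, 12.766, 12.891 and 12.694 in LP. LP replicate 3 was far above the others and the groups overlapped (0.0541 ± 0.0431). The probe sets of Uqcrc2 changed by -0.0465 ± 0.0503 and -0.00122 ± 0.0185. Cyc1, Uqcr10, Uqcr11, Uqcrc1 and Uqcrh were constant.

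In complex I all 14 varying probe sets had a higher mean in LP, with changes from 0.016 to 0.105 and a median of 0.064, and 7 of the 14 were separated upward. The 7 held both kinds of subunit, with the iron-sulfur core subunits Ndufs7 and Ndufs8 near the ubiquinone site and the accessory membrane-arm subunits Ndufb7, Ndufb8, Ndufb10, Ndufc1 and Ndufc2. Ndufb8 read 10.506, 10.474, 10.535 and 10.497 in CN and 10.554, 10.579, 10.724 and 10.575 in LP. All LP arrays were above all CN arrays, with LP replicate 3 apart from the rest. The change was 0.105 ± 0.041 (1.08-fold, pfp 0.0389, limma adjusted p 0.643, exact permutation p = 0.0286), and was 0.066 without LP replicate 3. The call was lost in 4 of 8 fits with 1 array left out, those without each LP array.

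Ndufc1 read 11.690, 11.656, 11.679 and 11.706 in CN and 11.749, 11.736, 11.856 and 11.732 in LP. The groups were separate and LP replicate 3 again lay highest. Its change of 0.0854 ± 0.0314 came with a pfp of 0.050, at the threshold itself, and the call was lost in 7 of 8 fits with 1 array left out. Ndufs8 read 11.140, 11.098, 11.133 and 11.130 in CN and 11.183, 11.210, 11.242 and 11.162 in LP, a narrower spread within each group. Its change was 0.0739 ± 0.0196, not called (pfp 0.0575, exact permutation p = 0.0286). Ndufb10 was 11.455, 11.443, 11.428 and 11.478 in CN and 11.519, 11.498, 11.522 and 11.483 in LP, so that the lowest LP array and the highest CN array nearly touched. The change was 0.0545 ± 0.014, not called, with an exact permutation p of 0.0286 and the smallest limma p of the complex (adjusted p 0.582).

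The other separated complex I subunits changed by 0.0735 ± 0.0214 (Ndufb7), 0.0723 ± 0.0304 (Ndufs7) and 0.0721 ± 0.0238 (Ndufc2), none called. Of those that overlapped, Ndufs3, a core subunit of the arm that projects into the matrix, changed by 0.0641 ± 0.0237, Ndufa8 by 0.0647 ± 0.0456 and Ndufa3 by 0.0548 ± 0.0244. Ndufb3, Ndufb9, Ndufv3 and Ndufb11 changed by 0.0487, 0.0395, 0.0196 and 0.0163. The NADH-binding subunit Ndufv1, its neighbor Ndufv2 and the largest iron-sulfur subunit Ndufs1 were constant.

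**Figure D2:**
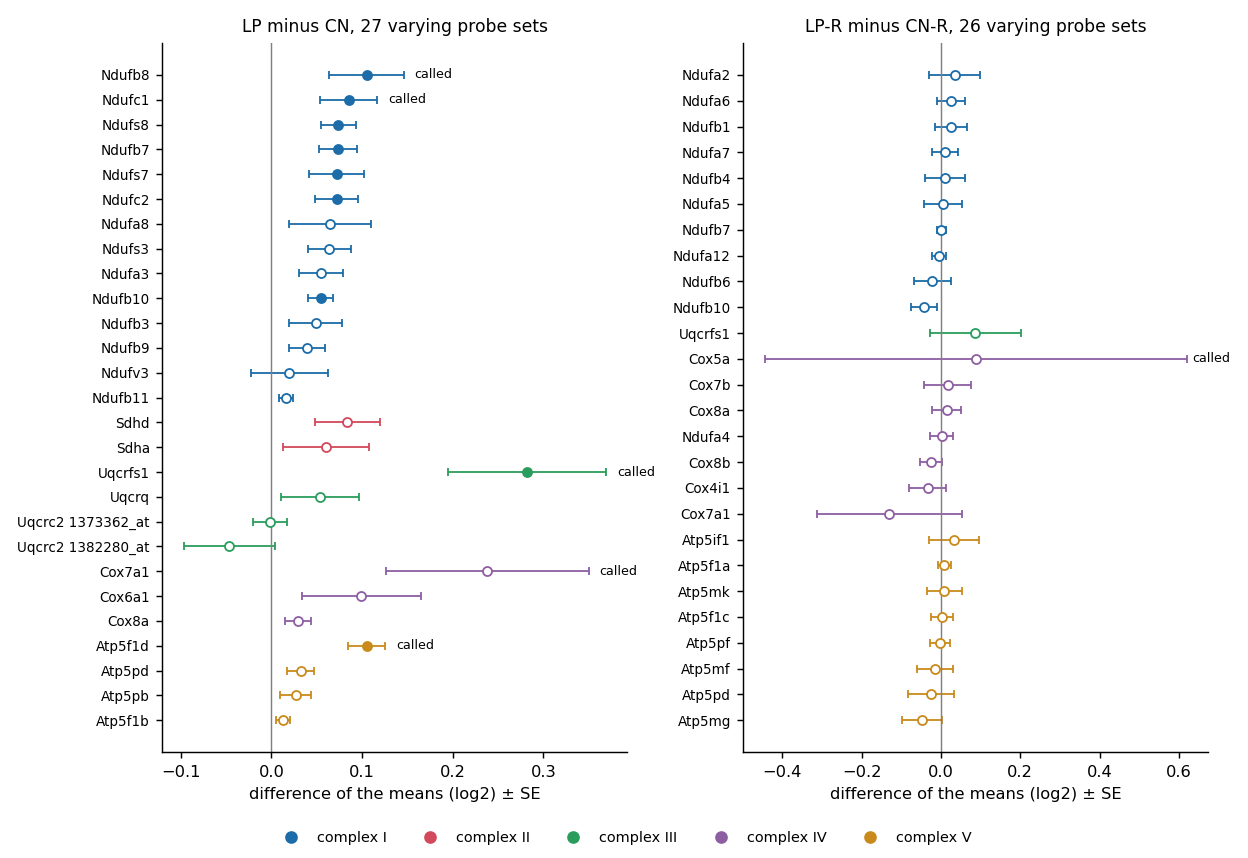
Difference of the group means on the log2 scale (points) with its SE (bars) for each varying OXPHOS probe set, colored by complex, on axes of different width. Filled points mark probe sets whose restricted arrays all lie above the control arrays and "called" marks rank products calls. In LP 9 points are filled, Uqcrfs1 lies farthest right at 0.282 and Uqcrc2 lies below 0, and in LP-R no point is filled.

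Complex V showed a single larger change. Atp5f1d, the delta subunit of the central stalk that joins the catalytic head to the rotating ring, read 12.186, 12.203, 12.142 and 12.173 in CN and 12.298, 12.262, 12.318 and 12.247 in LP. The groups did not overlap, and no LP array stood apart from the others. The change was 0.105 ± 0.0207 (1.08-fold, pfp 0.0398, exact permutation p = 0.0286), with the smallest limma p of the members (0.0017, adjusted 0.525). Its call was lost in 5 of 8 fits with 1 array left out, with changes from 0.093 to 0.116. The peripheral stalk subunits Atp5pd and Atp5pb changed by 0.0322 ± 0.0153 and 0.0268 ± 0.0173 and the catalytic beta subunit Atp5f1b by 0.0124 ± 0.00767, all with overlapping groups. The other 16 probe sets of complex V were constant in this array set, among them the alpha subunit Atp5f1a of the head, the c subunit gene Atp5mc3 and 3 probe sets of Atp5if1, the inhibitor of ATP hydrolysis.

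Complex IV, the cytochrome oxidase, had 3 varying probe sets of 19, all of subunits that come in tissue forms. Cox7a1, the heart and skeletal muscle form, read 8.956, 8.778, 9.251 and 9.120 in CN and 9.199, 9.394, 9.209 and 9.254 in LP. CN replicate 3 lay above 2 of the LP arrays, so the groups overlapped. Rank products called it higher (0.238 ± 0.112, 1.18-fold, pfp 0.0171), while the exact permutation p was 0.0857 and the limma adjusted p 0.683, and the call was lost in 3 of 8 fits with 1 array left out. Cox6a1, the form of non-muscle tissues, changed by 0.099 ± 0.0655 from 10.08 ± 0.09 (SD, n = 4) in CN, and its muscle partner Cox6a2 was constant. Cox8a, also of wide expression, read 10.758, 10.802, 10.764 and 10.768 in CN and 10.794, 10.789, 10.832 and 10.794 in LP. CN replicate 2 reached into the LP range, with a change of 0.0295 ± 0.0141 and an exact permutation p of 0.114. Its muscle partner Cox8b was constant, as were Cox4i1 and the lung form Cox4i2.

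Complex II, which is also the succinate dehydrogenase of the citric acid cycle, had 2 varying probe sets. Sdhd, a membrane anchor, read 11.698, 11.652, 11.734 and 11.770 in CN and 11.768, 11.744, 11.858 and 11.819 in LP, with overlap (0.0836 ± 0.0358, exact permutation p = 0.0857). A second probe set of Sdhd was constant. Sdha, the flavoprotein that oxidizes succinate, read 11.303, 11.324, 11.390 and 11.405 in CN and 11.336, 11.362, 11.510 and 11.454 in LP (0.0603 ± 0.0475, exact permutation p = 0.286). Neither was called, and Sdhb and Sdhc were constant. With 1 array left out the change of Sdhd ran from 0.063 to 0.102, and it was called higher without CN replicate 4. That of Sdha ran from 0.029, without LP replicate 3, to 0.087.

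**Figure D3:**
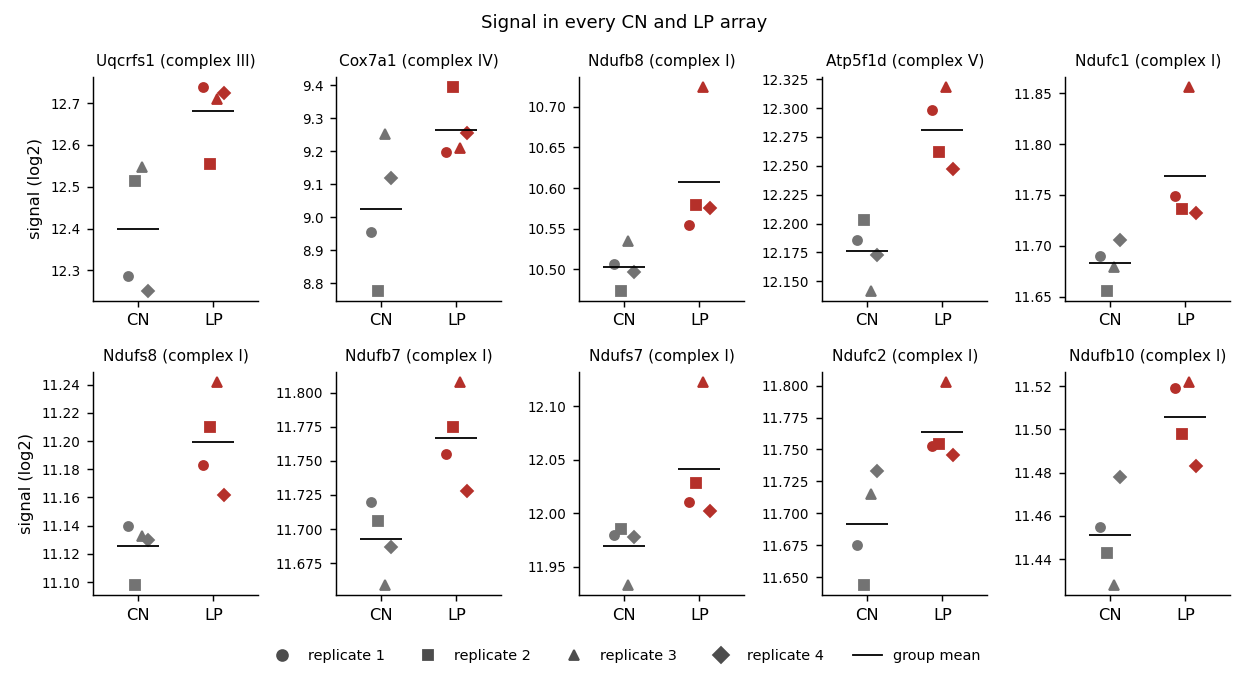
Log2 signal of 10 OXPHOS probe sets in each CN array (grey) and LP array (red), with a symbol for each replicate number and a line at the group mean, on an axis of its own for each gene. The 9 probe sets without overlap and Cox7a1, which was called but overlaps, are shown. LP replicate 3 (triangle) is the highest LP array for Ndufb8, Ndufc1, Ndufs7, Ndufc2 and others, and LP replicate 2 (square) is the lowest for Uqcrfs1.

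Single arrays carried different parts of the shift. Averaged over the 27 varying probe sets, the deviation from the CN mean was -0.010, -0.017, 0.010 and 0.016 in CN replicates 1 to 4 and 0.042, 0.056, 0.119 and 0.053 in LP replicates 1 to 4. All LP arrays were thus above all CN arrays, and LP replicate 3 was more than 2 times as far from CN as the other LP arrays. It lay above the CN mean in 27 of 27 probe sets, LP replicate 2 in 25, LP replicate 1 in 21 and LP replicate 4 in 19, and the CN arrays in 11 to 19.

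**Figure D4:**
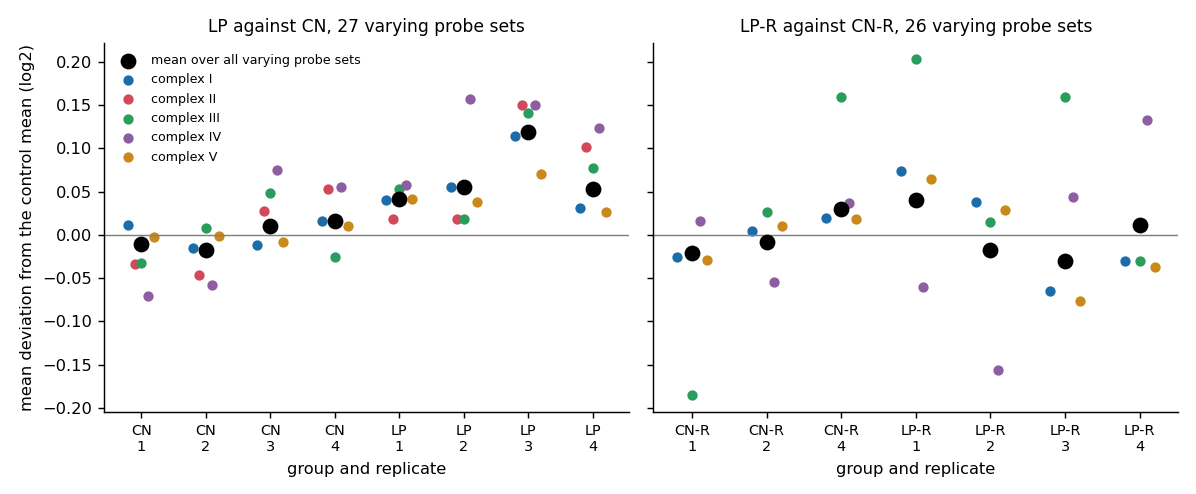
Mean deviation from the control mean (log2) over the varying OXPHOS probe sets in every array, for all complexes together (black) and for each complex (color). On the left the 4 LP arrays lie at 0.042 to 0.119, above the CN arrays at -0.017 to 0.016. On the right the LP-R arrays run from -0.030 to 0.040 and the CN-R arrays from -0.021 to 0.030.

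After the rebound period the members showed no common shift on the deposited scale. Of the 26 varying probe sets, 16 had a higher and 10 a lower mean in LP-R than in CN-R, with a median change of 0.004 against -0.024 over all 3100 varying probe sets, of which 34.0% had a higher mean. None was separated between the groups in either direction, while among all varying probe sets 0.516% were separated upward and 3.32% downward. Rank products called 1 member higher (1.11%) and 0 lower, with 0.345% and 0.171% of all probe sets called. By limma 0 members and 0 of all probe sets passed (0.0%), with a smallest adjusted p of 0.969 among members. An unadjusted limma p under 0.05 was found for 5 members, 0 of them varying, and for 1566 of all 31042 probe sets. With 3 against 4 arrays the exact permutation test can reach 0.0286.

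The direction of these late means depended on the scale and on single arrays. After each array was centred on the median of its varying probe sets, 25 of 26 had a higher mean in LP-R and the median change was 0.059, while over all varying probe sets the share with a higher mean moved from 34.0% to 66.7%. LP-R replicate 1 lay above the CN-R mean in 23 of 26 probe sets and LP-R replicate 3 below it in 23 of 26. Without LP-R replicate 1, 3 of 26 had a higher mean, and without LP-R replicate 3, 20 of 26. Without CN-R replicate 1, 9 of 26 had a higher mean, and without LP-R replicate 2, 10 of 26.

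The called probe set was one of Cox5a, which binds the heme-carrying core of complex IV from the matrix side. Another probe set carries the symbol of Cox5a together with that of another gene and was not used. The signal of the called one was low, with a CN-R mean of 7.73 against a median of 10.65 over the complex IV probe sets. It read 7.862, 7.419 and 7.910 in CN-R and 6.787, 7.104, 8.590 and 8.794 in LP-R. LP-R replicates 1 and 2 lay below all CN-R arrays and replicates 3 and 4 above, so the call (pfp 0.0391) rested on a wide spread. The change was 0.0882 ± 0.533, with an exact permutation p of 0.857. It turned negative without LP-R replicate 3, LP-R replicate 4 or CN-R replicate 2, at -0.169, -0.237 and -0.067.

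In complex I, 10 probe sets varied and changed by -0.043 to 0.035. Ndufb10 read 11.459, 11.559 and 11.537 in CN-R and 11.504, 11.480, 11.456 and 11.460 in LP-R. All 4 LP-R arrays were below the CN-R mean, but CN-R replicate 1 lay among them (-0.0434 ± 0.0322, exact permutation p = 0.229). After median centring this change was 0.012. Ndufa6, an accessory subunit, changed by 0.0247 ± 0.0354, and Ndufb7, separated upward in LP, by 0.000956 ± 0.011.

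Uqcrfs1 was the single varying probe set of complex III. It read 12.367, 12.578 and 12.711 in CN-R and 12.755, 12.567, 12.711 and 12.522 in LP-R, with CN-R replicate 1 lowest and full overlap otherwise. The change was 0.0868 ± 0.115 (pfp 0.23, exact permutation p = 0.514). It was -0.006 without CN-R replicate 1, and 0.166 and called higher without CN-R replicate 4. Cox7a1 read 8.205, 8.153 and 8.161 in CN-R and 8.488, 7.626, 7.922 and 8.140 in LP-R. Its LP-R arrays lay on both sides of a narrow CN-R group (-0.13 ± 0.182, exact permutation p = 0.629), and the change was -0.278 and called lower without LP-R replicate 1 but 0.010 and not called without LP-R replicate 2. It was the 1 varying member with a lower mean in LP-R after median centring (-0.074).

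The other isoform genes of complex IV that varied late were Cox4i1 (-0.0338 ± 0.047), Cox8b (-0.0253 ± 0.0287) and Cox8a (0.0141 ± 0.0357), none called. After median centring these changes were 0.022, 0.030 and 0.069. In complex V 8 probe sets varied and changed by -0.048 to 0.033. Atp5if1 read 9.310, 9.334 and 9.449 in CN-R and 9.525, 9.385, 9.299 and 9.383 in LP-R, with overlap (0.0333 ± 0.0635). Atp5mg, a subunit of the membrane part, changed by -0.0475 ± 0.0512, and by 0.008 after median centring. No probe set of complex II varied late.

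The changes in LP and in LP-R were set side by side only for the 6 probe sets that varied in both array sets, since a constant gives no change to compare. All 6 had a higher mean in LP, and 3 had a higher and 3 a lower mean in LP-R. The difference between the 2 changes was 0.098 for Ndufb10 (exact permutation p = 0.0098), 0.073 for Ndufb7 (exact permutation p = 0.0367), 0.195 for Uqcrfs1 (exact permutation p = 0.244) and 0.367 for Cox7a1 (exact permutation p = 0.144). It was 0.015 for Cox8a (exact permutation p = 0.761) and 0.057 for Atp5pd (exact permutation p = 0.359). These 6 exact p are unadjusted. Benjamini-Hochberg adjustment over the 6 gave 0.0588 for Ndufb10 and 0.11 or more for the others. Arrays were reassigned within each set, so these p refer to no change in either set rather than to equal changes. Limma's test of the same difference, adjusted over all 31042 probe sets, gave 0.574 for Ndufb10 and 0.682 or more for the others.

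Genes that serve the complexes were read from lists of known genes. For comparison, 57.6% of all varying probe sets had a higher mean in LP, and 5.41% were separated upward and 2.49% downward. Of all probe sets, rank products called 1.68% higher and 1.58% lower in LP. In LP-R 34.0% of all varying probe sets had a higher mean, and 0.345% of all probe sets were called higher and 0.171% lower. Of the assembly factors, 44 genes had 59 probe sets, of which 17 varied in LP and CN, 14 with a higher and 3 with a lower mean and a median change of 0.056. Rank products called 4 higher and 0 lower. These were Cox10, which makes the heme A precursor of complex IV (0.118 ± 0.02), Sdhaf1, an assembly factor of complex II (0.184 ± 0.04), Atpaf1, which assists assembly of the complex V head (0.160 ± 0.06), and Coa3, which acts early in complex IV assembly (0.101 ± 0.04). The groups did not overlap for Cox10, Sdhaf1, this probe set of Atpaf1 and Cox14, and limma called none of the 17 at its adjusted threshold. A second varying probe set of Atpaf1 changed by 0.0333 ± 0.03, with overlap and no call. In LP-R, 13 varied, with 5 higher and 8 lower means and 0 calls by rank products or limma.

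Of the electron carriers and exchange proteins, 11 probe sets varied in LP and CN, 9 with a higher and 2 with a lower mean. Etfb, which brings electrons of fatty acid oxidation toward ubiquinone, was called higher (0.112 ± 0.04), and Slc25a3, the phosphate carrier that feeds ATP synthase, changed by 0.0719 ± 0.02 with no overlap and no call. Vdac1, a channel of the outer membrane, was separated downward, with a change of -0.0272 ± 0.01 and no call. In the citric acid cycle 3 probe sets varied, of which Dlst, a subunit of the 2-oxoglutarate dehydrogenase complex, was called higher (0.0932 ± 0.03) and Ogdh and Idh2 had lower means (-0.0465 and -0.0453). Of the biogenesis factors, Ppargc1a and Ppargc1b varied. The 3 probe sets of Ppargc1a, the coactivator that promotes mitochondrial biogenesis, were called lower in LP at -0.508 ± 0.62, -0.0661 ± 0.63 and -0.0558 ± 0.64, with SE larger than each change. In LP-R none of these 3 lists held a call, and 3 of 8, 0 of 4 and 0 of 4 varying probe sets had a higher mean.

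**Figure D5:**
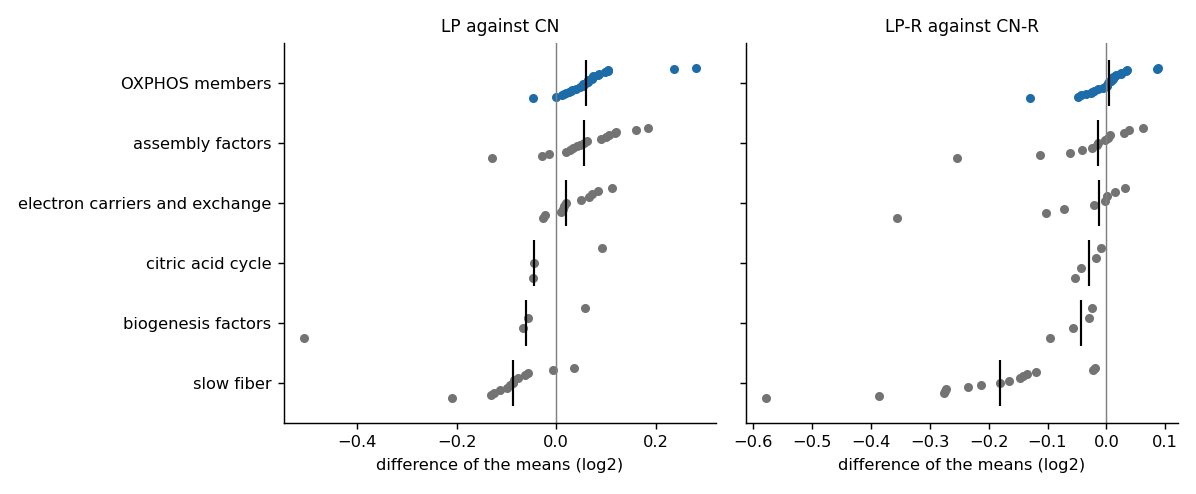
Difference of the group means (log2) for each varying probe set of the OXPHOS members (blue) and of 5 accompanying lists (grey), with the list's median as a line and axes of different width. In LP the medians of the OXPHOS members and the assembly factors lie at 0.060 and 0.056 and that of the slow fiber genes at -0.086. In LP-R the slow fiber median is -0.181 and that of the members 0.004.

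The tissue label was borne out by the skeletal muscle markers, of which 10 of 10 genes had a CN signal over 10. None of their 6 varying probe sets was called in LP, and in LP-R 2 of 8 were called higher, both of the fast fiber myosin Myh1 (0.155 and 0.148). Markers of other cells moved in part with the groups. The shares over all probe sets are those given for the lists above. Of the slow fiber genes, 13 probe sets varied in LP and CN, 1 with a higher and 12 with a lower mean, and 0 were called. Their mean deviation per array ran from -0.280 to 0.043 in LP and from -0.131 to 0.086 in CN. In LP-R 15 varied, all with a lower mean, and 2 were called lower (Ankrd2 and Myh7), at -0.349 to 0.019 per array against -0.129 to 0.098 in CN-R. Of the endothelial genes, 6 of 8 probe sets varied in LP and CN, 5 with a higher mean and 3 called higher (Kdr, Gpihbp1 and Tie1), and the per-array mean ran from 0.069 to 0.189 in LP and from -0.042 to 0.028 in CN. In LP-R 2 varied, with 1 higher and 1 lower mean and 0 calls. Of the adipocyte genes, 4 of 7 probe sets varied, 3 with a higher mean and Adipoq called higher (-0.194 to 0.542 per array in LP, -0.227 to 0.288 in CN). In LP-R 2 varied, both lower, and Cfd was called lower. Of the brown adipocyte genes 1 of 3 probe sets varied, and of the macrophage genes 0 of 6. Smooth muscle, fibroblast, blood and Schwann cell genes gave 2, 5, 1 and 2 varying probe sets in LP and CN, of which 0, 3, 0 and 2 had a higher mean, with Tagln and Col1a1 called lower. In LP-R all 2, 5, 1 and 3 had a lower mean and 0 were called. The part of these markers in the OXPHOS changes was not tested.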

How the data were processed

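Gastrocnemius RNA of 15 rats was measured on Rat Genome 230 2.0 arrays, 1 for each rat, so the number of arrays limits the precision. The authors deposited log2 signals per probe set, made with FARMS in R. No further normalization was applied. The CN-R arrays among these 15 are numbered 1, 2 and 4. Control probe sets (57) were left out. Symbols came from the platform annotation of 2016, and symbols updated through gene IDs changed 0 members. Members and lists were chosen with earlier results of these data known.

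Rank products ran in Python 3.11.15 (numpy 2.4.6, scipy 1.17.1, pandas 2.3.3) over all pairs of arrays within a comparison, with 100 permutations, seed 1 and a pfp up to 0.05. limma 3.58.1 (R 4.3.3, default prior) was run on each comparison alone over 31042 probe sets, with a threshold of 0.05 on the Benjamini-Hochberg adjusted p, and once over all 15 arrays for the difference between the changes. Each was tested on simulated arrays that kept the real spread. They recovered most or many of the set changes in the right direction, but rank products also called more unchanged probe sets than its threshold allows. Exact permutation tests were two-sided over all assignments of arrays within a set. SE is that of a difference of 2 means.

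Named were members that were called, had the 2 smallest limma p of a complex, did not overlap, or are isoforms or the inhibitor, and up to 2 genes of smallest limma p from each list. Other listed genes were named after their values were seen. Alternatives were quantile normalization, median centring, the varying probe sets alone, leaving out the probe sets below the median signal, 1 probe set for each gene, another prior, a replicate block, another place for CN-R replicate 4 and each array left out. 1000 permutations, and counts of separated members without single arrays, were added after seeing the data.

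No genome build is given for the probe sets in the sources used here, so they have no coordinates. Promoter windows have those of the RefSeq table. Figures were drawn with matplotlib 3.10.9.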

Additional observations from a re-analysis of the deposited data

Results flagged for a closer look

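In 6 of 42 groups of 4 arrays tested over the named probe sets, 1 array lay far from the others by Dixon's criterion, which chance gives in about 5% of groups, and genes of 1 array are not independent. LP replicate 3 was such a highest array for Ndufb8 (10.724, others 10.55 to 10.58), Ndufc1 (11.856, others 11.73 to 11.75), Ndufc2 (11.803, others at 11.75) and Cox8a (10.832, others at 10.79). CN replicate 3 was lowest for Ndufs7 (11.933, others 11.98 to 11.99). LP replicate 2 was lowest for Uqcrfs1 (12.554, others 12.71 to 12.74). Without LP replicate 3, 24 of 27 varying members had a higher mean in LP.

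For Ndufb10, every LP array lay above the CN mean and every LP-R array below the CN-R mean. The changes were 0.055 and -0.043 and differed by 0.098 (exact permutation p = 0.0098, or 0.0588 after Benjamini-Hochberg adjustment over the 6 probe sets tested). Limma's adjusted p over all probe sets was 0.574, and the LP-R change was 0.012 after median centring.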

How the results depend on the processing

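The number of members called higher in LP by rank products, 5 as reported, was 0 with the varying probe sets alone, 1 without the probe sets below the median signal, 2 with 1 probe set for each gene and 1 to 6 with each array left out. In LP-R the 1 member called higher was 0 with the varying probe sets alone, 0 without those below the median signal, 0 with a replicate block, 3 with CN-R replicate 4 as LP-R and 0 to 2 with each array left out, where 0 to 1 were called lower. Over all probe sets, the varying ones alone gave 11 higher and 20 lower in LP in place of 522 and 492, and 5 and 2 in LP-R in place of 107 and 53. With each array left out, 104 to 635 of all probe sets were called higher in LP and 30 to 148 in LP-R. Same-numbered arrays did not all deviate together (r of 0.551, -0.0309, 0.165 and 0.401 early and 0.0441, 0.186 and 0.215 late), and a sample deviated most like its own number in 2 of 4 and 2 of 3 pairs. The replicate block, which is no pairing by design, gave 7 members higher in LP and 0 in LP-R. In LP-R it also dropped LP-R replicate 3, which has no CN-R array of its number. Leaving out that array alone likewise gave 0 members called higher. The median change of members in LP was 0.0 with the constant members included, by construction, and that in LP-R was 0.059 after median centring. The change of Cox5a in LP-R ran from -0.237 to 0.432 with each array left out, and was -0.169, -0.237 and -0.067 without LP-R replicate 3, LP-R replicate 4 and CN-R replicate 2. limma called 0 members in every alternative run, with a smallest adjusted p of 0.0557, in LP-R after median centring. With 1000 permutations rank products called 5 and 1 members higher. The cause of these shifts was not tested.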
